A study of Mus musculus with 8 samples.

Results

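Fatty acid synthesis and lipid storage were followed through 10 genes measured in mouse kidney with and without Keap1 knockdown and with and without ischemia-reperfusion injury. The genes were Srebf1, Acly, Acaca, Fasn, Elovl6, Scd1, Scd2, Gpam, Dgat2 and Plin2, a list set by pathway membership, and each was read from the brightest array probe whose RefSeq accession belonged to the gene. All 10 passed the filter on dim probes, out of 20687 genes tested. The samples were left kidneys of male mice aged 16 weeks, hybridised to 8 single-colour arrays, 2 in each of 4 groups. WT normal kidneys were wild type and uninjured, and KD normal kidneys carried the Keap1 knockdown and were uninjured. WT IRI and KD IRI kidneys were taken 1 day after the renal vessels of the left side had been clamped for 45 min and released, with the right kidney left unclamped. The labels do not say how the knockdown was made or in which cells it acts. The study's text gives n as 2 each, but the labels do not name the animal behind an array. The p-values therefore rest on the spread of these arrays alone, which may be technical. The design asks how injury and lower Keap1 act on the kidney transcriptome, separately and together.

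Newly made fatty acids start from citrate. ACLY splits citrate into acetyl-CoA, acetyl-CoA carboxylase (Acaca) turns acetyl-CoA into malonyl-CoA, and fatty acid synthase (Fasn) builds palmitate from malonyl-CoA with NADPH. ELOVL6 lengthens the chain, the stearoyl-CoA desaturases SCD1 and SCD2 put in a double bond, GPAM and DGAT2 carry out the first and last steps of triglyceride assembly, and PLIN2 coats the lipid droplets in which triglyceride is stored. SREBF1 encodes SREBP-1, the transcription factor known for driving most of these enzymes. The proximal tubule normally burns fatty acids rather than making them, and lipid droplets are known to build up in tubules after ischemia. Keap1 encodes the adaptor that marks NRF2 for degradation, and NRF2 drives antioxidant and NADPH-supplying genes.

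RefSeq start-site windows (build GRCm38.p6) were at hand for 7 of the 10 genes, 10 windows in all, and the 3 unmatched genes were Scd1, Scd2 and Dgat2. A window of 280 bases, 250 before the start and 30 from it, is shown for Plin2, Elovl6, Gpam and Fasn, since these 4 genes followed different courses after injury. Capitals mark a CCAAT box (CCAAT, or ATTGG where it lies on the other strand) or an E-box (CACGTG).
Plin2, chr4:86670030-86670309, minus strand: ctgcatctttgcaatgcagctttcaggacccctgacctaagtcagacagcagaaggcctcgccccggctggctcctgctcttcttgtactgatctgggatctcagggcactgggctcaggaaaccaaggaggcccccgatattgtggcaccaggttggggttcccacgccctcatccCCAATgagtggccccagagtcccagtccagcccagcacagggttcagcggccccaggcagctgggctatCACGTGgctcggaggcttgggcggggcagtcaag
Elovl6, chr3:129532136-129532415, plus strand: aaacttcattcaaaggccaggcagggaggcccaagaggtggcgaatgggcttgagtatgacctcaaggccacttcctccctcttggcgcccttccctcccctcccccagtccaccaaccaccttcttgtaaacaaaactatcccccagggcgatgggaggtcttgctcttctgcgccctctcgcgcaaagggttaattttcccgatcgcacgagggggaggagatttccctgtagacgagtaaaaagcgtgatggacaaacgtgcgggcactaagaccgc
Gpam, first of its 2 starts, chr19:55127209-55127488, minus strand: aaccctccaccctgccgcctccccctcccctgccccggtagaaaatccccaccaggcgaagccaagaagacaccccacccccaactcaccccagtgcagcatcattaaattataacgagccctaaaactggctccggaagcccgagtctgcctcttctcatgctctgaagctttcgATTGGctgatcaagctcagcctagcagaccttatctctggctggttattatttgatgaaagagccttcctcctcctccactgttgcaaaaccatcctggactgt
Fasn, chr11:120824518-120824797, minus strand: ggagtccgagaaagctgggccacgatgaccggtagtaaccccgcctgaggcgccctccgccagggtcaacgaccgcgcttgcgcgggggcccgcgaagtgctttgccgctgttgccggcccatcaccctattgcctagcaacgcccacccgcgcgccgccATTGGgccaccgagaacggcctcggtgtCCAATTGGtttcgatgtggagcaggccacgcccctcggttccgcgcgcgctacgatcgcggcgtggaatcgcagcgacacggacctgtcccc

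The E-box of Plin2 began 4 bases before the start and was the only one among the 10 windows, while 6.79% of all 32817 windows of this length held one. CCAAT boxes lay in windows of Srebf1, Plin2, Gpam and Fasn, with 3 matches in Fasn of which 2 shared bases, and 36.1% of all windows held at least 1. No window of the 7 genes matched TCACNCCAC, a form of the element that SREBP binds (1.18% of all windows), or TGACNNNGC, the core of the antioxidant response element that NRF2 binds (11.5%). These matches describe letters and are not measured binding sites.

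Levels are given as log2 signal over the 75th percentile of the array, and a difference is in log2 units with the standard error (SE) of limma. Keap1 stood at 2.75 and 2.66 (WT normal), 1.5 and 1.40 (KD normal), 2.66 and 2.50 (WT IRI) and 1.33 and 1.04 (KD IRI), so every knockdown array lay below every wild-type array. Nqo1, an NRF2 target, was higher in KD than in WT by 1.34 ± 0.115 without injury and by 2.05 ± 0.115 with it (limma adjusted p = 0.00361 and 0.00128). Between 62.1% and 67.8% of spots were well above background, and none was saturated. Markers of the proximal tubule, all 9 measured, summed to between 592 and 676 times the 75th percentile in the normal kidneys. In the injured ones they summed to between 123 and 229. All 9 were lower after injury in both genotypes, 8 in WT and 9 in KD at a limma adjusted p under 0.05. The 4 neutrophil markers measured, of 6 listed, summed to 0.238 and 0.231 in WT normal and to between 48.3 and 103 after injury. KD normal 2 stood apart from KD normal 1 in them, at 6.06 against 0.716. Each of 2 slides held 1 array of every group, replicate 1 on slide 1 and replicate 2 on slide 2.

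**Figure D1:**
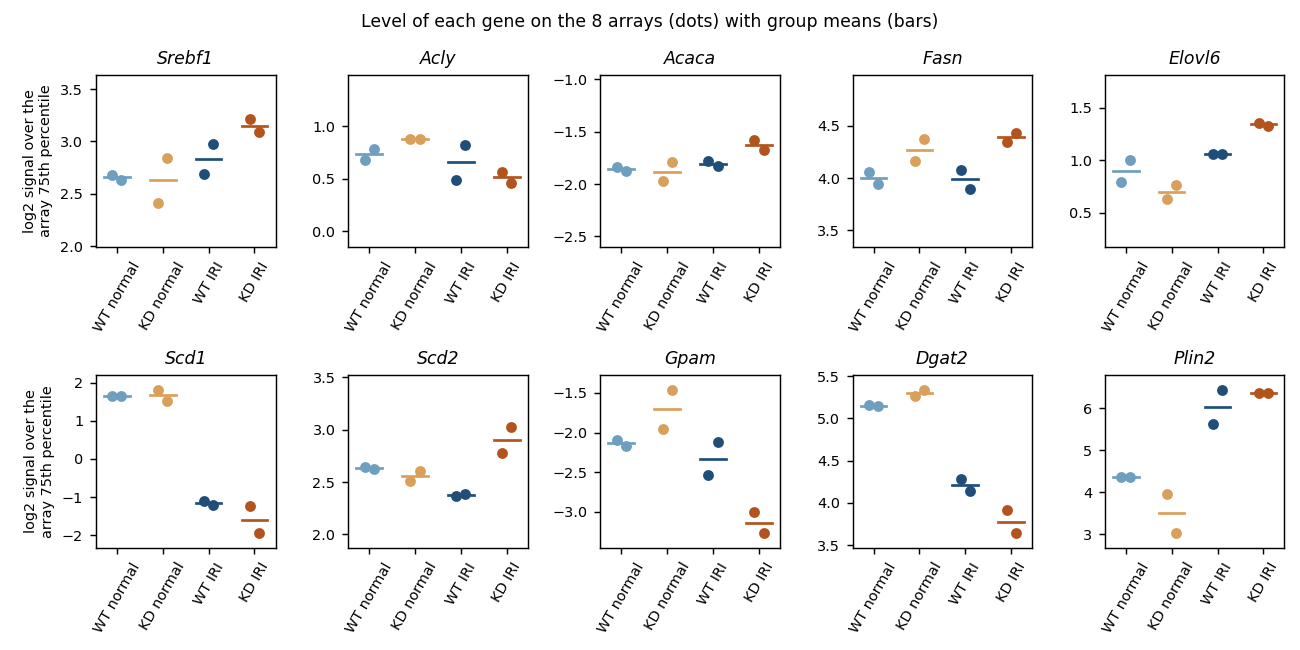
Level of each gene (log2 signal relative to the 75th percentile of its array, vertical axis, scaled separately in each panel), with 1 dot per array and a bar at each group mean. Scd1 falls from between 1.52 and 1.81 in normal kidneys to between -1.93 and -1.12 in injured ones, Dgat2 falls and Plin2 rises, while Fasn stays between 3.90 and 4.43 on all 8 arrays.

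Srebf1, the regulator of the pathway, rose modestly after injury in KD. It read 2.68 and 2.63 (WT normal), 2.41 and 2.84 (KD normal), 2.69 and 2.97 (WT IRI) and 3.21 and 3.09 (KD IRI). Its KD IRI arrays were the highest, and its KD normal arrays spread more widely than any other pair. The rise in KD was 0.52 ± 0.16 (1.44-fold, limma adjusted p = 0.0242, within slides 0.80 and 0.24), a call lost without KD normal replicate 1 (0.31, adjusted p = 0.109), without KD IRI replicate 1 (0.46, adjusted p = 0.113) and without KD IRI replicate 2 (0.59, adjusted p = 0.0615). In WT the difference was 0.17 ± 0.16 (adjusted p = 0.395).

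Acly, which supplies cytosolic acetyl-CoA, read 0.68 and 0.78 (WT normal), 0.88 and 0.88 (KD normal), 0.49 and 0.82 (WT IRI) and 0.57 and 0.46 (KD IRI). The KD normal arrays lay above all others and the WT groups overlapped. It fell after injury in KD by 0.37 ± 0.12 on the log2 scale (adjusted p = 0.0347), but the adjusted p was above the threshold in 10 of 18 alternative fits, among them those without any 1 WT normal, KD normal or KD IRI array, and ran up to 0.156 without KD IRI replicate 2.

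Acaca, the step that commits acetyl-CoA to fatty acids, ranged over the 8 arrays from -1.97 in KD normal to -1.58 in KD IRI and passed the threshold in none of the 5 comparisons. It had 4 probes, of which 2 were well above background on every array. The dimmer of these differed by -0.53 after injury in WT and by -0.27 in KD, against 0.05 and 0.25 for the brighter probe, so the probes disagree on the direction.

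Fasn, the palmitate synthase, read 4.05 and 3.95 (WT normal), 4.17 and 4.37 (KD normal), 4.08 and 3.90 (WT IRI) and 4.34 and 4.43 (KD IRI). Both KD groups lay above both WT groups with no overlap, although neither difference passed: 0.27 ± 0.10 in normal kidneys (adjusted p = 0.12) and 0.40 ± 0.10 in injured ones (adjusted p = 0.0642). After injury its difference was -0.01 ± 0.10 in WT (95% interval -0.254 to 0.232) and 0.12 ± 0.10 in KD (95% interval -0.125 to 0.36). Under quantile normalization these became 0.26 in WT and 0.49 in KD, the latter past the threshold (adjusted p = 0.00898). Its second, dimmer probe gave 0.05 and 0.34.

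The enzymes that reshape the chain parted from each other. Elovl6, the elongase, read 0.79 and 1.00 (WT normal), 0.63 and 0.76 (KD normal), 1.06 and 1.06 (WT IRI) and 1.36 and 1.33 (KD IRI). It was highest in KD IRI and lowest in KD normal, and no group overlapped another. It rose after injury in KD by 0.64 ± 0.097 (1.56-fold, adjusted p = 0.00119) and differed in WT by 0.16 ± 0.097 (adjusted p = 0.206).

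Scd1, the desaturase that makes oleate, changed most of the 10 genes. It read 1.65 and 1.66 (WT normal), 1.81 and 1.52 (KD normal), -1.12 and -1.20 (WT IRI) and -1.25 and -1.93 (KD IRI). Every injured array lay far below every normal one, whatever the genotype. It fell 7.00-fold in WT (-2.81 ± 0.21, adjusted p = 0.000181, within slides -2.76 and -2.85) and 9.54-fold in KD (-3.25 ± 0.21, adjusted p = 4.38e-05, within slides -3.06 and -3.45). These are whole-kidney samples, in which fewer cells of a type and less RNA per cell cannot be told apart. The proximal tubule sums given above fell in the same kidneys. Other tubule markers also fell at a limma adjusted p under 0.05. These were all 4 of the loop and distal tubule in each genotype, and 3 of 4 of the collecting duct in WT and 4 in KD. Of 3 podocyte markers 0 fell in WT and 1 in KD, and of 4 endothelial markers 1 fell and 2 rose in each genotype. The part of these cell types in the fall of Scd1 was not tested.

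Scd2, a paralog of Scd1, did not follow it. It read 2.65 and 2.62 (WT normal), 2.51 and 2.61 (KD normal), 2.37 and 2.39 (WT IRI) and 2.78 and 3.03 (KD IRI). The injured arrays lay below the normal ones in WT and above them in KD. The WT difference was -0.26 ± 0.096 (adjusted p = 0.0665, and past the threshold in 3 alternative fits), and in KD it rose by 0.34 ± 0.096 (1.27-fold, adjusted p = 0.0194). The rise lost its call without KD normal replicate 1 (0.29, adjusted p = 0.0859) and without KD IRI replicate 2 (0.22, adjusted p = 0.11), and with only the arrays compared (adjusted p = 0.0503). Scd1 and Scd2 neighbour Scd3 and Scd4 in the genome, all 4 being related in sequence, and cross-hybridisation between them was not tested. Scd3 and Scd4 did not pass the filter on dim probes.

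Both triglyceride-assembly enzymes were lower after injury in KD. Gpam, the acyltransferase of the first step, read -2.09 and -2.17 (WT normal), -1.96 and -1.46 (KD normal), -2.54 and -2.12 (WT IRI) and -3.01 and -3.26 (KD IRI). The KD IRI arrays were the lowest, whereas the WT arrays overlapped. It fell in KD by 1.43 ± 0.21 on the log2 scale (2.69-fold, adjusted p = 0.00119, within slides -1.05 and -1.80). The WT difference was -0.20 ± 0.21 (adjusted p = 0.477). Under normexp it turned to 0.22, where the median of all genes was 0.20. The fall in KD was not shared by all Gpat genes. There Gpat2 fell (-1.46 ± 0.22, adjusted p = 0.0011), Gpat3 rose (1.08 ± 0.18, adjusted p = 0.0018) and Gpat4 did not pass (0.088 ± 0.065, adjusted p = 0.28). Their KD IRI means were -3.05, 1.58 and 4.32.

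Dgat2, which adds the last acyl chain, read 5.15 and 5.15 (WT normal), 5.26 and 5.34 (KD normal), 4.28 and 4.14 (WT IRI) and 3.91 and 3.65 (KD IRI). No group overlapped another, and the order from high to low was KD normal, WT normal, WT IRI, KD IRI. It fell in WT by 0.94 ± 0.10 on the log2 scale (1.92-fold, adjusted p = 0.000585) and in KD by 1.52 ± 0.10 (2.87-fold, adjusted p = 4.68e-05). All 3 of its probes ran the same way, from -1.0 to -0.82 in WT and from -1.71 to -1.52 in KD.

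Plin2, the droplet coat, went the other way. It read 4.36 and 4.36 (WT normal), 3.97 and 3.04 (KD normal), 5.62 and 6.43 (WT IRI) and 6.37 and 6.36 (KD IRI). Every injured array lay above every normal one, and KD normal 2 was the lowest. It rose 3.18-fold in WT (1.67 ± 0.34, adjusted p = 0.00689, within slides 1.26 and 2.08) and 7.25-fold in KD (2.86 ± 0.34, adjusted p = 0.000399, within slides 2.40 and 3.32). Without KD normal 2, the library with the higher neutrophil markers, the KD rise was 2.40 (adjusted p = 0.00162).

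**Figure D2:**
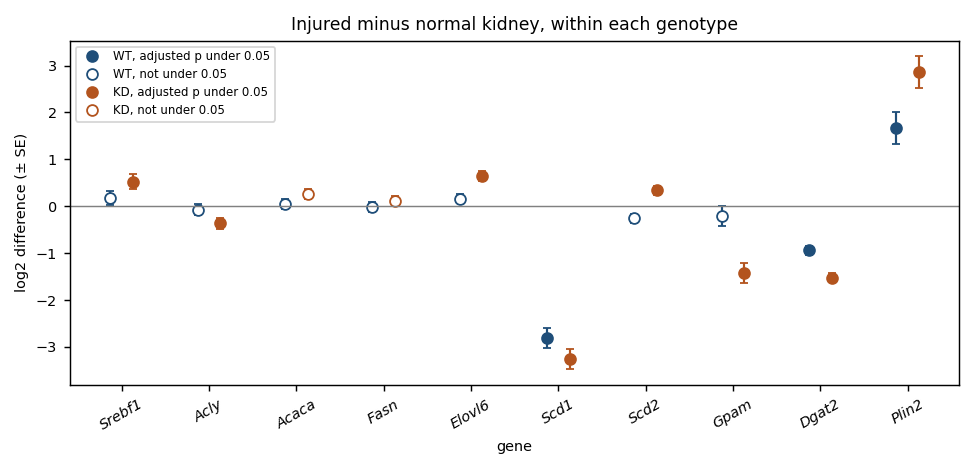
Injured minus normal kidney for each gene, as log2 difference with the SE of limma (n = 2 arrays per group), in WT and in KD. Filled points passed an adjusted p of 0.05. Scd1 and Dgat2 are lower and Plin2 higher in both genotypes, and Gpam is at -0.20 in WT and -1.43 in KD.

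Counted over the 10 genes, 1 rose, 2 fell and 7 did not pass in WT IRI against WT normal, where 45.9% of all genes tested passed, 20.5% upward and 25.4% downward. In KD IRI against KD normal, 4 rose, 4 fell and 2 did not pass, beside 59.4% of all genes, 27.4% upward and 32.0% downward. The median difference was -0.044 in WT and 0.19 in KD, against -0.084 for all genes in either comparison. The 4 that rose in KD were Srebf1, Elovl6, Scd2 and Plin2, and the 4 that fell were Acly, Scd1, Gpam and Dgat2. Of the 8 calls in KD, 5 were left without KD normal replicate 1, 7 without KD normal replicate 2 and 5 without KD IRI replicate 2.

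Whether the injury response differed between the genotypes was asked by limma's interaction test, which called none of the 10 genes, beside 6.45% of all genes. Scd2, Gpam, Dgat2, Elovl6 and Plin2 had an unadjusted p under 0.05, but the share of all genes at that cut-off was not counted. The smallest adjusted p belonged to Scd2, whose response differed by 0.60 ± 0.14 (adjusted p = 0.0505), and with the slide as a block it was 0.0456. Next were Gpam (-1.23 ± 0.30, adjusted p = 0.0614), Dgat2 (-0.58 ± 0.14, adjusted p = 0.0624) and Elovl6 (0.48 ± 0.14, adjusted p = 0.086). For Plin2 the difference of responses was 1.19 ± 0.48 (adjusted p = 0.174), with a 95% interval from 0.063 to 2.32. Under normexp Plin2 (1.57, adjusted p = 0.00277) and Scd2 (0.89, adjusted p = 0.0135) passed. Gpam passed without KD normal replicate 1 (-1.47, adjusted p = 0.0453) and without WT IRI replicate 1 (-1.44, adjusted p = 0.0447).

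KD normal against WT normal showed no call among the 10 genes by limma, beside 15.1% of all genes. Fasn and Plin2 had an unadjusted p under 0.05, a cut-off not counted over all genes. The difference of Scd1 was 0.014, with a 95% interval from -0.493 to 0.52. Plin2 was at -0.85 ± 0.34 (adjusted p = 0.132), with -0.39 on slide 1 and -1.31 on slide 2, and without KD normal replicate 1 it passed (-1.31, adjusted p = 0.0483), as it did under normexp (-1.02, adjusted p = 0.00456). Gpam was at 0.42 ± 0.21 (adjusted p = 0.223).

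In KD IRI against WT IRI, 1 of the 10 genes passed, Scd2, higher by 0.52 ± 0.096 (1.44-fold, adjusted p = 0.028, within slides 0.40 and 0.64), beside 7.00% of all genes. Its adjusted p rose above the threshold in 8 of 18 alternative fits, to 0.155 without KD IRI replicate 2, to 0.0726 and 0.0727 without WT normal replicate 1 or 2 and to 0.0653 and 0.0546 without WT IRI replicate 1 or 2. Dgat2 was lower with no overlap (-0.43 ± 0.10, adjusted p = 0.0534) and passed with the slide as a block (adjusted p = 0.0481). Gpam stood at -0.80 ± 0.21 (adjusted p = 0.0692), Scd1 at -0.43 ± 0.21 (adjusted p = 0.249) and Plin2 at 0.34 ± 0.34 (adjusted p = 0.565). Under normexp Scd1 was at -0.63 and passed (adjusted p = 0.03), but there the median of all genes had moved from -0.043 to -0.23. The comparisons above share groups, so their values for a gene are not independent of each other.

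**Figure D3:**
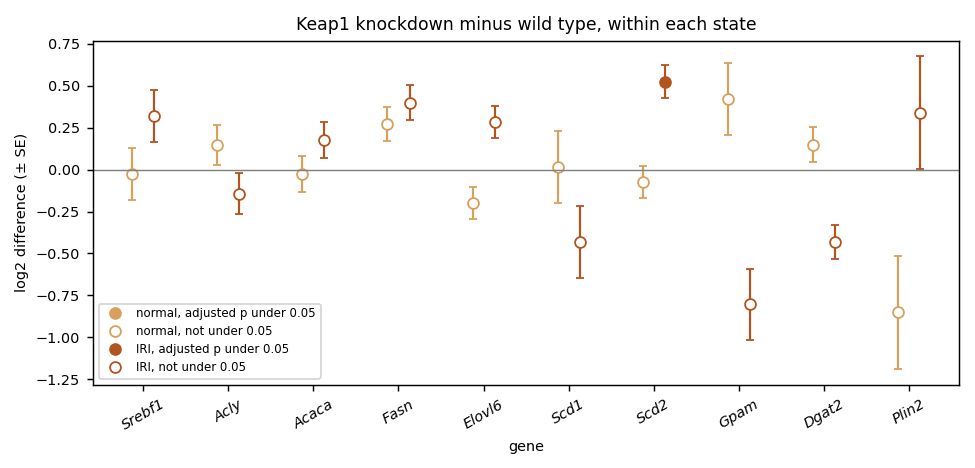
Keap1 knockdown minus wild type for each gene, as log2 difference with the SE of limma (n = 2 arrays per group), in normal and in injured kidneys. The filled point, Scd2 with injury at 0.52, is the one that passed an adjusted p of 0.05.

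Of 96 other genes of the pathway, 87 were tested, grouped by role. After injury 13 rose, 44 fell and 30 did not pass in WT (median -0.34), and 12 rose, 53 fell and 22 did not pass in KD (median -0.58), where all genes had a median of -0.084. These are 65.5% and 74.7% of the 87, beside 45.9% and 59.4% of all genes. The list named for the supply of acetyl-CoA, malonyl-CoA and NADPH was the most one-sided of the 6 roles. In it 10 of 11 genes were lower and 1 higher in each genotype (medians -0.83 and -1.20), though not every gene on it is a supplier. Acss2, which makes acetyl-CoA from acetate, fell by 2.32 ± 0.20 in WT and by 2.65 ± 0.20 in KD on the log2 scale. Aacs, which makes acetoacetyl-CoA from ketone bodies, fell by 2.05 ± 0.24 and 2.69 ± 0.24, and Me1, the malic enzyme that supplies NADPH, by 1.27 ± 0.10 and 1.63 ± 0.10. The kinase subunit Prkaa1 was the member that rose (0.44 and 0.43), in WT not past the threshold under normexp (0.34, adjusted p = 0.0911). Its paralog Prkaa2 fell by 0.56 ± 0.12 and 1.23 ± 0.12. Mlycd, which breaks malonyl-CoA down, fell by 1.02 ± 0.12 and 1.47 ± 0.12.

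Acacb, the acetyl-CoA carboxylase isoform linked to control of fatty acid oxidation, differed from Acaca. It read 2.11 and 2.10 (WT normal), 0.87 and 1.14 (KD normal), 0.72 and 0.47 (WT IRI) and -0.14 and -0.20 (KD IRI). No group overlapped another, and both KD groups lay below their WT counterparts. Lower Keap1 went with a fall of 1.10 ± 0.12 on the log2 scale without injury (adjusted p = 0.00585) and of 0.76 ± 0.12 with it (adjusted p = 0.0218). The first call was lost without WT normal replicate 1 (adjusted p = 0.0506) or 2 (adjusted p = 0.0578), and the second without any 1 WT normal or KD IRI array (adjusted p between 0.0611 and 0.148).

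Among 13 regulators, 1 rose and 7 fell in WT, and 2 rose and 9 fell in KD. That is 61.5% and 84.6% of them, beside 45.9% and 59.4% of all genes. Insig1, which holds SREBP precursors back and is itself an SREBP target, fell by 1.61 ± 0.15 in WT and 1.45 ± 0.15 in KD, though under normexp the WT value was -0.41 (adjusted p = 0.646). Mlxipl, which encodes the carbohydrate-responsive factor ChREBP, fell by 0.99 ± 0.16 and 1.69 ± 0.16, and Mid1ip1, an activator of acetyl-CoA carboxylase, rose by 0.87 ± 0.18 in WT. Srebf2, which encodes SREBP-2 of cholesterol synthesis, rose by 0.31 ± 0.11 in KD (adjusted p = 0.0486), a call lost in 11 of 18 alternative fits.

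Of 12 other elongases and desaturases, 2 rose and 5 fell in WT, and 1 rose and 7 fell in KD. This was 58.3% and 66.7% of them, beside 45.9% and 59.4% of all genes. Fads2, a desaturase of polyunsaturated fatty acids, fell by 1.12 ± 0.11 and 1.28 ± 0.11, and Hacd1, a dehydratase of chain elongation, rose by 0.87 ± 0.096 and 0.93 ± 0.096. In glycerolipid assembly 3 rose and 7 fell of 18 in WT (55.6%), and 4 rose and 8 fell in KD (66.7%). Soat2, a cholesterol-esterifying enzyme, was not well above background in normal kidneys and was at least 1.97-fold higher in WT IRI (adjusted p = 0.000271) and at least 1.72-fold higher in KD IRI (adjusted p = 0.000143). Under normexp its differences were 1.57 and -0.39 and did not pass. The bound sets the dim group at no less than the dimmest signal of each array that was well above background.

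Lpin1, the phosphatase that makes diacylglycerol between the GPAM and DGAT2 steps, was lowest in KD IRI. It read 1.72 and 1.63 (WT normal), 1.55 and 1.99 (KD normal), 0.51 and 1.05 (WT IRI) and -0.38 and -0.73 (KD IRI). The injured arrays lay below the normal ones in both genotypes. It fell by 0.90 ± 0.22 in WT and by 2.33 ± 0.22 in KD, and this difference of responses passed limma's interaction test (-1.43 ± 0.31, adjusted p = 0.0463). That call was lost in 12 of 17 alternative fits, among them the one with the slide as a block (adjusted p = 0.0521) and all that left out 1 array other than KD normal replicate 1 or WT IRI replicate 1, with adjusted p up to 0.157. The WT fall was not past the threshold without WT normal replicate 1 (-0.86, adjusted p = 0.077), WT normal replicate 2 (-0.94, adjusted p = 0.0574) or WT IRI replicate 1 (-0.63, adjusted p = 0.0568).

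Of 19 droplet and lipolysis genes tested, 2 rose and 7 fell in WT, and 2 rose and 12 fell in KD. These are 47.4% and 73.7% of them, beside 45.9% and 59.4% of all genes. Those that fell were 36.8% in WT and 63.2% in KD, beside 25.4% and 32.0% of all genes. Those that rose were 10.5% in each, beside 20.5% and 27.4%. The pair that rose comprised Hilpda, a hypoxia-inducible inhibitor of lipolysis, at 1.04 ± 0.16 and 1.59 ± 0.16, and Plin3, another droplet coat, at 0.63 ± 0.13 and 0.89 ± 0.13. The carboxylesterase Ces1d fell by 2.92 ± 0.35 and 3.39 ± 0.35. Plin5, the coat that ties droplets to mitochondria, read 0.88 and 0.94 (WT normal), 0.063 and 0.87 (KD normal), 0.26 and 0.99 (WT IRI) and -1.23 and -1.57 (KD IRI). It was below 0 on the KD IRI arrays alone, and it fell by 2.02 ± 0.32 from WT IRI to KD IRI (adjusted p = 0.0204), a call lost without any 1 WT normal or KD IRI array (adjusted p between 0.0553 and 0.145).

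Of 14 genes of fatty acid uptake and activation, 4 rose and 8 fell in WT, and 2 rose and 7 fell in KD. The shares were 85.7% and 64.3%, beside 45.9% and 59.4% of all genes. Lpl, the lipase that frees fatty acids from circulating triglyceride, fell by 2.22 ± 0.18 and 3.27 ± 0.18, and Fabp3, a cytosolic fatty acid-binding protein, by 1.87 ± 0.12 and 1.73 ± 0.12. Slc27a2, a transporter and acyl-CoA synthetase of the proximal tubule, fell by 1.70 ± 0.15 in WT and 2.73 ± 0.15 in KD (interaction -1.03 ± 0.22, adjusted p = 0.0432, lost in 10 of 17 alternative fits). Acsl4, an acyl-CoA synthetase for arachidonate, rose by 1.32 ± 0.19 and 0.68 ± 0.19, the latter call being lost without any 1 of the 4 KD arrays (adjusted p between 0.0563 and 0.0801).

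Between genotypes the 87 genes gave 6 higher and 3 lower without injury, and none higher and 10 lower with injury, among them Acacb, Lpin1, Plin5, Lipe and Slc27a2. That is 10.3% of them without injury, where 15.1% of all genes passed, and 11.5% with injury, where 7.00% of all genes passed, 3.66% upward and 3.35% downward. All 9 proximal tubule markers were lower in KD IRI than in WT IRI (median -0.40, from -1.65 to -0.11), 2 of them past the threshold. Their part in these values was not tested. Both counts depended on single arrays. The count of 10 was lowest without KD IRI replicate 2, and the count of 9 without injury was lowest without either WT normal array. The calls over all genes tested were also fewest in those fits. The count of 10 rose without WT IRI replicate 2, and the count of 9 rose without either WT IRI array.

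**Figure D4:**
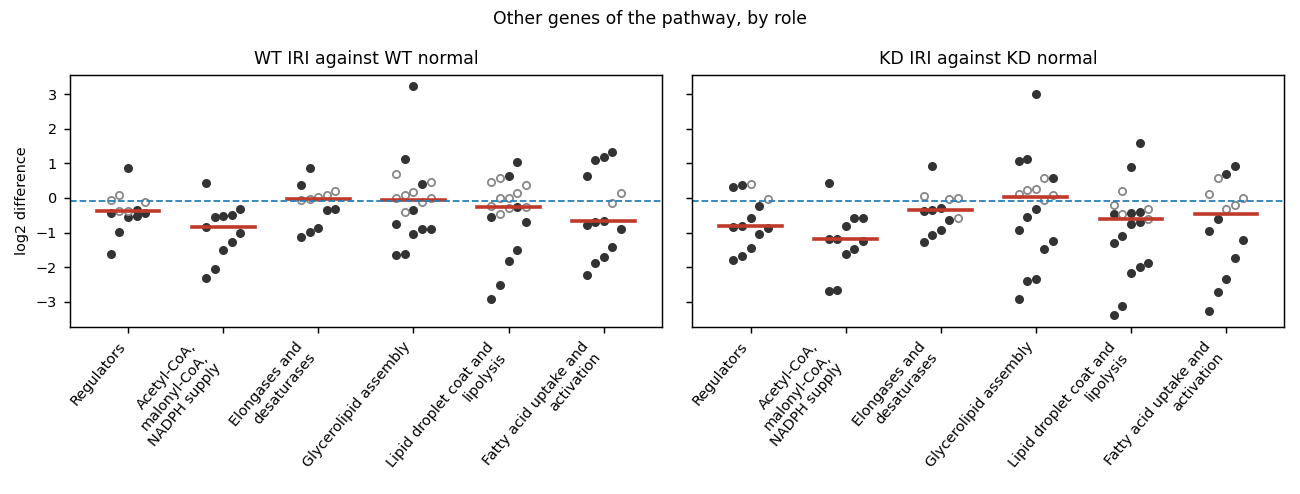
Injured minus normal kidney for the other pathway genes, as log2 difference, by role, in WT (left) and KD (right). Each dot is a gene, filled where the adjusted p was under 0.05. The red bar is the median of the role and the dashed line the median of all genes tested. The role named for acetyl-CoA, malonyl-CoA and NADPH supply has medians of -0.83 and -1.20.

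Fat cells make and store lipid, so their markers were read beside these genes. Of 8 adipocyte markers, 7 were tested, 4 of them also in the pathway lists, and Lep did not pass the filter; each of the 7 was well above background on every array. Adipoq read -0.46 and -2.85 (WT normal), -3.25 and -1.10 (KD normal), -1.41 and -1.47 (WT IRI) and -1.17 and -3.89 (KD IRI). It thus varied widely inside 3 of the 4 groups, and Cfd, Plin1 and Cidec were high and low on the same normal arrays. The summed marker signal ran from 19.9 to 34.8 in WT normal, 29.1 to 42.5 in KD normal, 44.0 to 53.6 in WT IRI and 32.1 to 39.8 in KD IRI. Most of this sum was Fabp4, which endothelial cells and macrophages also express and which rose by 1.10 after injury in WT, while the other 6 did not pass there. In KD, Lipe and Retn fell after injury and the other 5 did not pass. The part of fat cells in the values of the 10 genes was not tested. Of the 7 measured macrophage markers, 6 rose and 1, Csf1r, fell after injury in each genotype, by 0.97 on the log2 scale in WT and by 0.58 in KD. Together they summed to between 4.50 and 5.79 in normal and between 9.83 and 13.2 in injured kidneys, and their part in the rise of Plin2, which macrophages also express, was not tested.

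The profiles nearest to Scd1, the gene with the widest span of group means (3.25), were sought by the root-mean-square difference over the 8 arrays after centring each gene. The nearest 5 were Bdh1 (0.0949), a ketone-body dehydrogenase, Gnmt (0.176), a glycine methyltransferase, Ugt3a1 (0.178), Upb1 (0.195) and Mep1a (0.202), a brush-border protease. Bdh1 fell by 2.86 ± 0.15 in WT and 3.18 ± 0.15 in KD. That these lie close to the Scd1 values follows from its choice by nearness on the same arrays. For Srebf1 the nearest were Psmc5 (0.0889), a proteasome subunit, Nucks1 (0.0923), Grhl1 (0.0929), Gpt2 (0.0964) and Ap2a1 (0.0994).

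**Figure D5:**
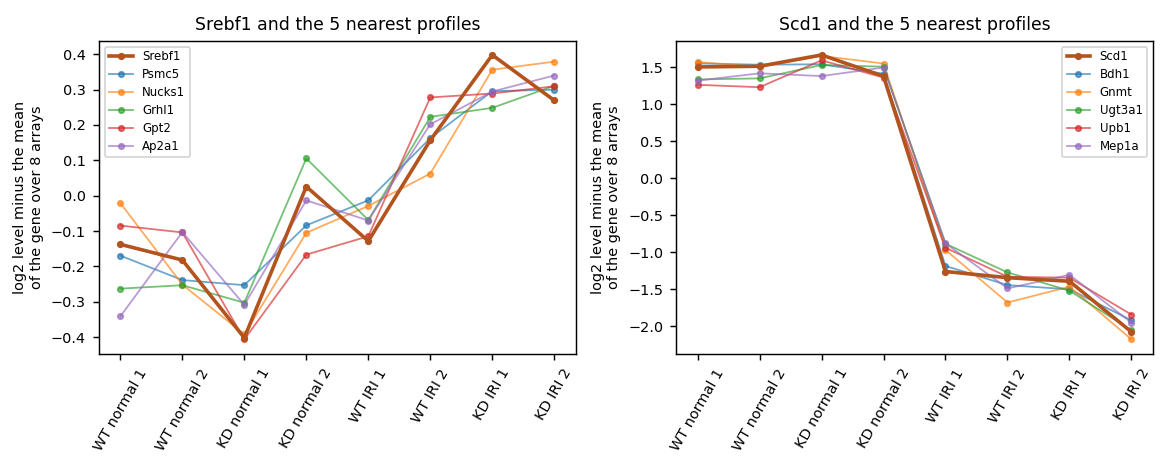
Log2 level on each of the 8 arrays after subtracting the mean of the gene, for Srebf1 (left) and Scd1 (right, thick line) with the 5 genes of nearest profile. The Scd1 group falls between the normal and the injured arrays, and the Srebf1 group rises to its highest values on the KD IRI arrays, on a narrower axis.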

How the data were processed

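Total RNA of mouse kidney was labelled with Cy3 (300 ng per array) and hybridised to 8 single-colour Agilent arrays, per the labels' protocols. The deposited scanner tables hold intensity per spot, background-corrected by Feature Extraction 10.7.3.1, per the file headers. The authors' deposited value table holds log2 values centred per probe, as found by setting it against the scanner values (r at least 0.998), with its direction and scale agreeing and its centring rule not given in the sources used here.

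The log2 processed signal was taken relative to the 75th percentile of the 43379 non-control spots of each array. Spots with outlier marks were dropped, spots of a probe were averaged, and a probe was kept if both arrays of some group read it well above background (27567 of 41174). Probes were named through their RefSeq accession (26690 of 41174), and the brightest kept probe stood for a gene. Of the 20687 genes tested, 14156 had a gene symbol, and the rest stood under the systematic name of their probe. Shares of all genes are taken over this whole set. All 20687 were fitted in limma 3.58.1 (R 4.3.3) over all 8 arrays, with an intensity trend and 4 residual degrees of freedom. Benjamini-Hochberg adjustment was used at a threshold of 0.05. The fit was also run on simulated independent normal noise with shifts added in WT IRI alone. That simulation held no slide or cell-composition effect, and its outcome is not given here. Only 2 arrays per group limit the precision.

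Named genes were the 10 members, Keap1 and Nqo1, and, in each role list and comparison, up to 2 with the largest rise and fall and the largest change that did not pass. Gpat2, Gpat3 and Gpat4 were named in addition, beside Gpam. The members and lists were chosen with earlier results of these data known. Alternatives were quantile normalization, normexp (offset 50, on median signals), the deposited table (without the intensity trend), other filters, probe means, slide or replicate blocks, only the arrays compared, and each array left out. Same-numbered arrays shared a slide, per the file headers. Their deviations from the group means correlated between 0.0215 and 0.262 over 6 pairs of groups.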

Additional observations from a re-analysis of the deposited data

Results flagged for a closer look

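The injury response of 3 of the 87 other pathway genes tested differed between KD and WT by limma's interaction test. This is 3.45% of them, below the 6.45% of all genes. Lpin1, the phosphatase that yields diacylglycerol, differed by -1.43 (adjusted p = 0.0463), a call lost in 12 of 17 alternative fits, the slide block among them (adjusted p = 0.0521). Slc27a2, a fatty acid transporter, differed by -1.03 (adjusted p = 0.0432), a call lost in 10 of 17. Rxra, the partner receptor of LXR and PPAR factors, differed by -0.40 (adjusted p = 0.0479), and this call was lost in 14 of 17 alternative fits. The count of 3 such genes among the other pathway genes ran from 0 without WT normal replicate 1, WT normal replicate 2 or KD IRI replicate 2 to 10 without WT IRI replicate 1. Scd2 moved down on the WT arrays and up on the KD arrays after injury, and its difference of responses was 0.60 (adjusted p = 0.0505), not past the threshold.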

How the results depend on the processing

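Of the 12 differences among the 10 genes that passed, 8 kept their sign and call in all 18 alternative fits: those of Scd1, Dgat2 and Plin2 in both genotypes and of Elovl6 and Gpam in KD. Of the 38 that did not pass, 8 passed in at least 1 fit. Of 51 differences of other pathway genes, Keap1 and Nqo1, 35 held in every fit that could measure them. Quoted differences of further genes, such as Bdh1, Fabp4 and Csf1r, were not part of this check. Leaving out 1 array gave 3 to 4 calls among the 10 genes for injury in WT and 5 to 8 in KD, and 0 to 1 in each of the other 3 comparisons. For KD IRI against WT IRI the count of 1 became 2 under normexp, with the filter on all 8 arrays and with the slide or the replicate block, which are the same fit, and 0 with the deposited table, without the intensity trend and with only the arrays compared. For KD normal against WT normal the count of 0 became 1 under normexp. For the interaction the count of 0 became 2 under normexp and 1 with the filter on all 8 arrays or with the slide or replicate block, and the replicate block changed no other call among the 10 genes. Among the other pathway genes, KD IRI against WT IRI gave 0 calls with only the arrays compared and 0 to 18 with 1 array left out, against 10. KD normal against WT normal gave 16 and 0 to 16 in the same order, against 9. The interaction gave 0 with the deposited table, without a filter or without the trend, 6 with the slide or replicate block and 0 to 10 with 1 array left out, against 3.

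Differences that turned sign were, but for Soat2, not past the threshold. Under normexp Acaca came to -0.0778 after injury in KD, -0.20 in KD IRI against WT IRI, 0.18 in KD normal against WT normal and -0.38 for the interaction, Gpam to 0.22 after injury in WT, Scd1 to -0.12 in KD normal against WT normal, and Soat2 to -0.39 after injury in KD. With the mean of all probes Acaca came to -0.44 after injury in WT, -0.33 in KD and -0.25 in KD IRI against WT IRI, and Fasn to 0.0205 after injury in WT. Fasn after injury in WT was 0.26 under quantile normalization and 0.0035 with the deposited table, and Scd1 in KD normal against WT normal was -0.0222 under quantile normalization. With 1 array left out, KD normal against WT normal ran from -0.12 to 0.063 for Acaca, -0.13 to 0.16 for Scd1 and -0.24 to 0.19 for Srebf1. Injury in WT ran from -0.24 to 0.0914 for Acly, -0.10 to 0.0814 for Fasn and -0.41 to 0.0101 for Gpam. KD IRI against WT IRI ran from -0.31 to 0.024 for Acly and -0.0684 to 0.74 for Plin2. Normexp moved the median of all genes after injury to 0.20 in WT and -0.35 in KD, and to 0.15, -0.23 and -0.31 for KD normal, KD IRI and the interaction. The cause of these shifts was not tested, and the normexp values given for single genes were not corrected for them. Arrays left out of a group leave 1 array there, whose spread is then taken from the other groups.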
